A study of Mus musculus with 10 samples.

Results

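The genes described here encode the insulin and insulin-like growth factor (IGF) signalling pathway of the liver: Irs1, Irs2, Insr, Igf1, Igfbp1, Igfbp2, Foxo1, Foxo3, Pik3r1 and Akt2. They were taken by symbol from a table of read counts with 19764 genes; all 10 were present, and all 10 passed the filter on low counts, among 12558 genes tested. The counts come from polyadenylated RNA of whole liver of female mice. GRflox mice carry a floxed glucocorticoid receptor gene and no Cre, and GRMAC mice carry the same floxed gene with 1 copy of LysM-Cre, a Cre recombinase driven by the lysozyme M locus of macrophages and related myeloid cells and not meant to act in hepatocytes. GRflox littermates served as controls, so an effect of LysM-Cre itself and the loss of the receptor cannot be told apart. Mice of both groups were fasted for 8 h from ZT12, the start of their active phase, and the labels name no other treatment. Each group had 5 libraries, here called GRflox 1 to 5 and GRMAC 1 to 5. The labels do not say that each library is a separate animal, so the p-values measure the spread between these libraries. Ages are not given in the sources used here.

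Insulin binds its receptor INSR, a tyrosine kinase that phosphorylates the adaptors IRS1 and IRS2. These recruit phosphatidylinositol 3-kinase, whose regulatory subunit p85α is made from Pik3r1, and so activate the kinase AKT, of which AKT2 is a main form in hepatocytes. AKT phosphorylates FOXO1 and FOXO3 and keeps them out of the nucleus; in fasting, when insulin is low, nuclear FOXO1 drives genes such as Igfbp1, Irs2 and those of gluconeogenesis. The liver also secretes most circulating IGF1, under the control of growth hormone, together with binding proteins such as IGFBP1 and IGFBP2 that hold IGF1 in the blood.

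Promoter sequences of 9 of the 10 genes were found in a RefSeq table (build GRCm38.p6; 250 bases before to 50 bases after an annotated start, 14 windows in all). They were searched on both strands for 4 motifs: the core of the insulin response element bound by FOXO factors (CAAAACAA), a FOXO site (GTAAACA), the hexamer of the glucocorticoid receptor's site (AGAACA) and the core of the cAMP response element (TGACG). The insulin response element core was found in 3 of the 14 windows, those of Irs1, Irs2 and Igfbp1, and in 2.51% of 32851 windows of the same length across the genome. Of the 10 genes, Igfbp1 spread most between libraries in GRflox and Irs2 in GRMAC, while Irs1 fell in GRMAC liver. In GRflox, Pik3r1 and Igfbp2, whose windows lack the core, spread more than Irs2 (SD of log2 CPM 0.248 and 0.233 against 0.202). In GRMAC the SD was 0.436 for Foxo1, whose window also lacks it. There it was 0.555 for Irs2, 0.483 for Igfbp1 and 0.125 for Irs1. A link between the core and these values was not tested. The windows of Irs1, Irs2 and Igfbp1 are shown, 5′ to 3′ on the gene's strand. Capitals mark every match to any of the 4 motifs.
Irs1 (chr1:82291390-82291689, minus strand): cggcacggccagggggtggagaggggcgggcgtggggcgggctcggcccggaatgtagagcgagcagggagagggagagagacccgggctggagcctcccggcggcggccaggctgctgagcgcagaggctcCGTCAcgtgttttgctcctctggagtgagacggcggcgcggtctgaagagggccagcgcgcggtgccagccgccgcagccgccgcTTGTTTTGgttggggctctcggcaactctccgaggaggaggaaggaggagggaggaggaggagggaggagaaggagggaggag
Irs2 (chr8:11008880-11009179, minus strand): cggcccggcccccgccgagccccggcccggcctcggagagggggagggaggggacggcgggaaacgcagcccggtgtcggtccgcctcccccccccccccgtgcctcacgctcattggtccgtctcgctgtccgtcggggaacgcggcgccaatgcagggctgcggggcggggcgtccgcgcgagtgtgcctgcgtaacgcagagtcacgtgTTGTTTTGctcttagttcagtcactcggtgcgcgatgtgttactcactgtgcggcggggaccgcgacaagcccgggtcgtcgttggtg
Igfbp1 (chr11:7197537-7197836, plus strand): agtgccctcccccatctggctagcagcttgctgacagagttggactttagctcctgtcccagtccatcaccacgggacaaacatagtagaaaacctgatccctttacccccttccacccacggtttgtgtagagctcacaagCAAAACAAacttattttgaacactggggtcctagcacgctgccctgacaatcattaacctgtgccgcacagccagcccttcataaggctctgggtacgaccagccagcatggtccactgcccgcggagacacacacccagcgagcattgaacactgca

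In Igfbp1 the element begins 108 bases before the start, on the gene's own strand, and it begins 33 bases before the start in Irs1 and 38 bases before it in Irs2, on the opposite strand in both. The Irs1 window also holds the core of the cAMP response element, 118 bases before the start. The starts of the Irs1 and Igfbp1 windows are those of the transcripts in the count table, whereas that of Irs2 lies 499 bases upstream of its transcript. None of the 14 windows held the FOXO site, 1 held the receptor hexamer (Igfbp2, against 19.0% of all windows) and 5 windows of 4 genes held the cAMP response element core (20.8% of all windows). A match describes these letters only; binding was not measured.

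Library totals were 25697931 to 27692528 counts in GRflox and 23258884 to 26116916 in GRMAC. A count of 3 in a library, which covers counting error only, corresponded to 0.111 to 0.129 CPM, the usual unit of counts relative to the scaled library total. The gene of the glucocorticoid receptor, Nr3c1, had a mean of 72.8 ± 7.14 CPM in GRflox and of 82.5 ± 7.75 CPM in GRMAC (SD, n = 5); a single count for the whole gene cannot reveal a lost exon and so is no check of the knockout. Cd163, a scavenger receptor gene of macrophages, was lower, at 28.8 ± 7.81 and 3.07 ± 0.493 CPM, and its part in the values below was not tested. The tissue label was checked with fixed marker lists. Markers of hepatocytes (10 genes) summed to between 122000 and 144300 CPM in every library. Summed markers of Kupffer cells and macrophages (14 genes) were at 447 to 593 CPM in GRflox and 511 to 619 CPM in GRMAC. Cd163 is part of this sum and was the 1 gene of the list that edgeR called. Sums for sinusoidal endothelial, stellate, bile duct and lymphoid cells overlapped between the genotypes as well, and no listed marker was at 0 in all libraries.

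Irs1 was the only one of the 10 genes that passed the test between genotypes, and it was lower in GRMAC liver. The gene (NM_010570, mm10 chromosome 1, 82233105 to 82291439, minus strand) encodes insulin receptor substrate 1. It was at 41.5, 36.5, 38.1, 41.3 and 40.1 CPM in GRflox 1 to 5, from 971 to 1099 counts. In GRMAC 1 to 5 it was at 28.7, 31.1, 29.1, 27.1 and 33.9 CPM, from 666 to 825 counts. The highest GRMAC library lay below the lowest GRflox library. Means were 39.5 ± 2.15 CPM in GRflox and 30.0 ± 2.64 CPM in GRMAC (SD, n = 5), and the log2 fold change was −0.40 ± 0.07 (SE; adjusted p = 0.0432 by the quasi-likelihood test of edgeR with Benjamini-Hochberg adjustment over all tested genes). In bulk liver, fewer cells that express Irs1 and less Irs1 RNA per cell cannot be told apart.

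The size of this fall changed little with the processing, but the call stood close to the threshold. Over 19 alternatives the log2 fold change lay between −0.45 and −0.35, negative in all 19. The authors' deposited table gave −0.40 with adjusted p = 0.000112. DESeq2 run here on the same counts, 1 of the 19 alternatives, gave the same values, so the 2 are not separate support. With limma-voom the adjusted p was 0.0544, and with edgeR without robust estimation it was 0.0563. Leaving out any single library other than GRMAC 5 took the adjusted p to between 0.0520 and 0.106, and without GRMAC 5 it was 0.0124 (edgeR). The GRMAC totals were lower, and the slope of log2 expression against transcript GC (for each 10 percentage points) ran from 0.00801 to 0.0699 in GRflox and from −0.0544 to 0.00875 in GRMAC. The Irs1 transcript has 50.3% GC, against a median of 50.5% over tested genes, and after correcting for GC and transcript length its log2 fold change was −0.45 ± 0.07 (adjusted p = 0.0415, edgeR).

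**Figure D1:**
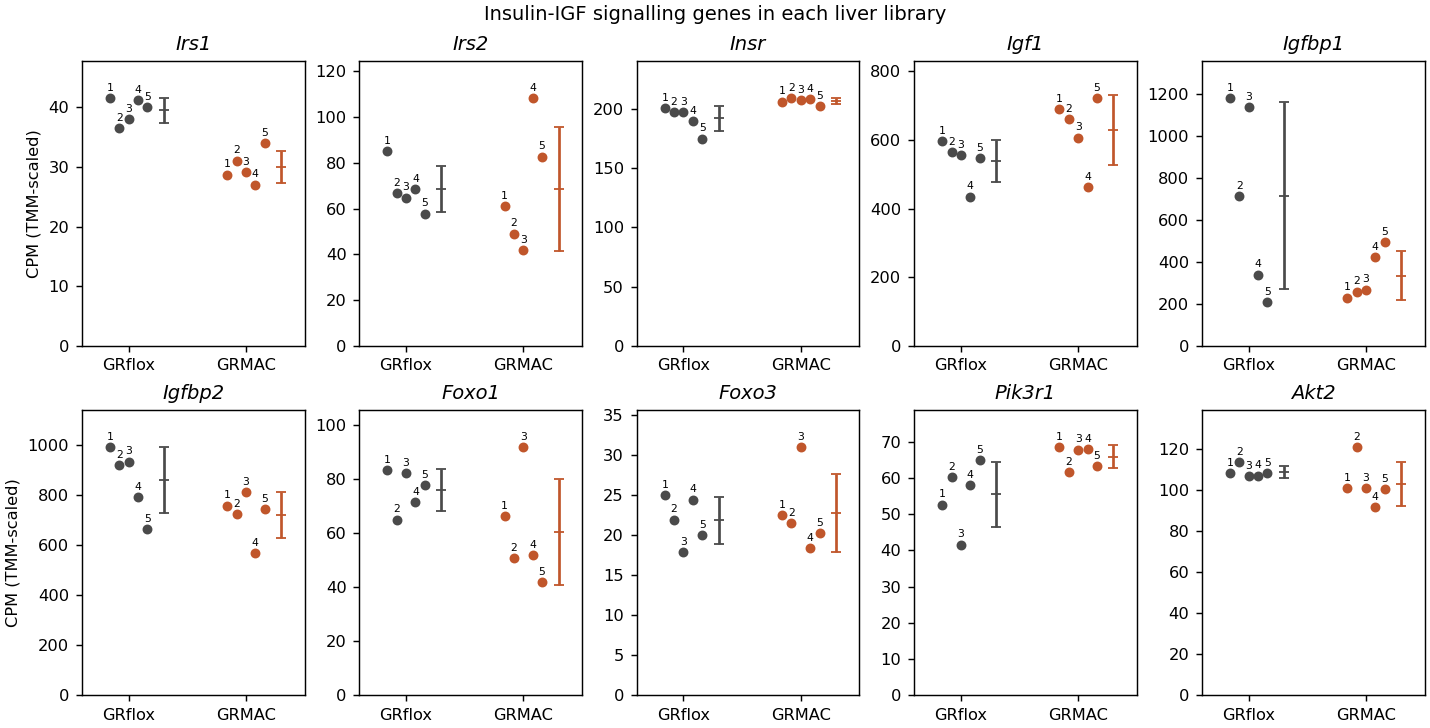
TMM-scaled CPM (y axes, each from 0) of the 10 genes in GRflox and GRMAC liver; points are libraries with their numbers, and the bars beside them give the mean and SD (n = 5). For Irs1 all GRMAC points (27.1 to 33.9 CPM) lie below all GRflox points (36.5 to 41.5 CPM), while Igfbp1 spreads from 209 to 1180 CPM within GRflox.

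Across the whole table, edgeR called 22 of 12558 genes (0.175%), and of the 10 members it called 1. The members were chosen with earlier results of these data known, so the shares given here describe them and do not measure enrichment. At an unadjusted p under 0.05 there were 3 of the 10 (Irs1 and Igfbp2 lower, Pik3r1 higher), where 16.3% of all tested genes reached it. Irs1 was also the 1 member with an adjusted p under 0.05 in the authors' deposited table, against 3.33% of the genes with a value. The libraries of the genotypes did not overlap for 2 of the 10, Irs1 and Insr, against 4.05% of all tested genes. Of the 10 log2 fold changes 5 were positive and 5 negative, with a median of −0.04, and the median over all tested genes was 0.00.

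**Figure D2:**
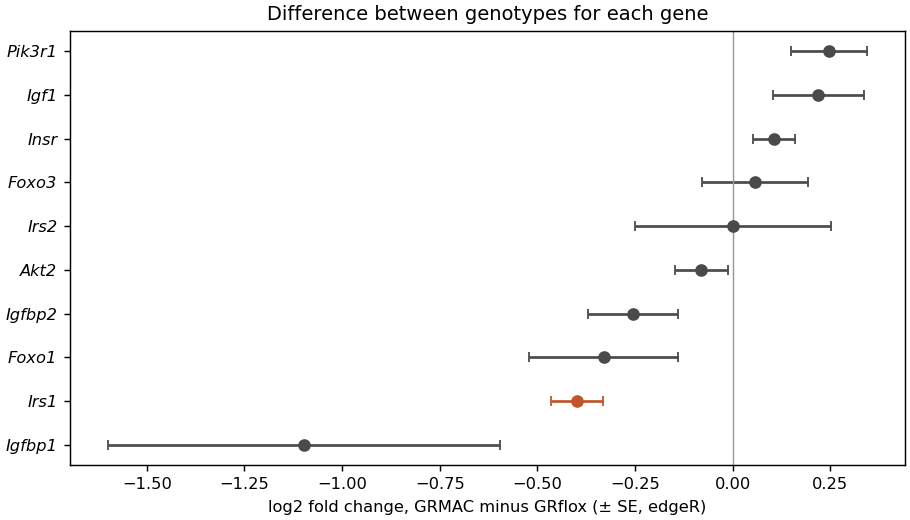
Log2 fold change of GRMAC against GRflox with its standard error (x axis, edgeR) for each of the 10 genes. Irs1 (orange, −0.40 ± 0.07) is past the threshold over all tested genes, and Igfbp1 has the largest difference and the largest error (−1.10 ± 0.50).

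Igfbp1 (NM_008341, chromosome 11, 7197787 to 7202546) varied widely between libraries of a genotype, most of all in GRflox. Its product is an insulin-repressed carrier of IGF1 whose gene is a classical FOXO1 target in fasted liver. It was at 1180, 714, 1139, 339 and 209 CPM in GRflox 1 to 5. In GRMAC 1 to 5 it was at 230.2, 259, 268, 422 and 494 CPM. The high values of GRflox 1, 2 and 3 lay above every GRMAC library, whereas GRflox 4 and 5 lay within or below the GRMAC range. Means were 716 ± 445 and 334.5 ± 116 CPM (SD, n = 5), and the log2 fold change of −1.10 ± 0.50 did not pass (adjusted p = 0.322, edgeR). The SD of log2 CPM in GRflox was 1.10, above that of 99.8% of tested genes, where the median gene had 0.143. In GRMAC it was 0.483, above 93.0% of genes, with a median gene of 0.156. Leaving out single libraries gave log2 fold changes from −1.33 to −0.84, and none of these fits called the gene.

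Igfbp2 (NM_008342, chromosome 1, 72824480 to 72852471), another hepatic IGF carrier, was at 989, 918, 932, 789 and 663 CPM in GRflox 1 to 5. It was at 756, 722, 811, 565 and 742 CPM in GRMAC 1 to 5. As with Igfbp1, GRflox 1 to 3 were the highest libraries and GRflox 4 and 5 overlapped with GRMAC. The means of 858 ± 131 and 719 ± 92.3 CPM gave a log2 fold change of −0.26 ± 0.12, with an unadjusted p = 0.0460 and adjusted p = 0.296 (edgeR).

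Igf1 (NM_001111275, chromosome 10, 87859056 to 87937047), the ligand itself, was at 596, 565, 555, 435 and 548 CPM in GRflox 1 to 5 and at 691, 661.5, 606, 461.5 and 721 CPM in GRMAC 1 to 5. In 4 of 5 GRMAC libraries it lay above every GRflox library, and the exception was GRMAC 4; GRflox 4 was likewise the lowest control. Means were 539.7 ± 61.3 and 628 ± 102 CPM, a log2 fold change of 0.22 ± 0.12 that did not pass (adjusted p = 0.371, edgeR). The Igf1 transcript has a GC content of 38.0%, and the correction for GC content and length took the log2 fold change to 0.08 (adjusted p = 0.803, edgeR).

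Insr (NM_010568, chromosome 8, 3150922 to 3279617), the receptor gene, was at 200.4, 197, 197, 189.6 and 175 CPM in GRflox 1 to 5. It was at 206, 209, 207.5, 208 and 202 CPM in GRMAC 1 to 5. Every GRMAC library was higher than every GRflox library, by little, and GRflox 5 was the lowest. The means were 192 ± 10.3 and 206.5 ± 2.71 CPM, and the log2 fold change of 0.11 ± 0.05 did not pass (adjusted p = 0.343, edgeR). With the correction for GC content and length it was 0.03 (adjusted p = 0.798, edgeR). The GRMAC libraries were close to each other: the SD of log2 CPM was 0.0190, and 0.143% of tested genes had a smaller one.

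The second adaptor gene, Irs2 (NM_001081212, chromosome 8, 10986964 to 11008430), did not follow Irs1. It was at 85.0, 66.8, 64.9, 68.5 and 57.9 CPM in GRflox 1 to 5 and at 61.2, 49.1, 41.9, 108 and 82.7 CPM in GRMAC 1 to 5. GRMAC 4 was the highest of all 10 libraries and GRMAC 3 the lowest, so the GRMAC libraries lay on both sides of the controls. The means were nearly equal, 68.6 ± 10.04 and 68.6 ± 27.0 CPM, and edgeR gave a log2 fold change of 0.00 ± 0.25 with adjusted p = 0.999. The standard error is wide: without GRMAC 4 the log2 fold change was −0.22, and without GRMAC 3 it was 0.14, neither of them past the threshold. The SD of log2 CPM was 0.202 in GRflox and 0.555 in GRMAC, the latter above 95.5% of tested genes.

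Pik3r1 (NM_001077495, chromosome 13, 101680761 to 101768217) was at 52.6, 60.4, 41.6, 58.1 and 64.9 CPM in GRflox 1 to 5. In GRMAC 1 to 5 it was at 68.5, 61.6, 67.9, 68.0 and 63.3 CPM. GRflox 3 was the lowest library, and GRflox 5 was the only control within the GRMAC range. Means were 55.5 ± 8.95 and 65.9 ± 3.17 CPM, a log2 fold change of 0.25 ± 0.10 with an unadjusted p = 0.0243 and adjusted p = 0.227 (edgeR). Without GRflox 3 it was 0.16, and with the correction for GC content and length it was 0.17 (adjusted p = 0.469, edgeR).

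Akt2 (NM_001110208, chromosome 7, 27591560 to 27639453) was at 108, 113, 107, 107 and 108 CPM in GRflox 1 to 5 and at 101, 121, 101, 91.3 and 100.3 CPM in GRMAC 1 to 5. It lay below every control in 4 of 5 GRMAC libraries and above every control in GRMAC 2. The log2 fold change was −0.08 ± 0.07 (adjusted p = 0.597, edgeR), and it was −0.14 without GRMAC 2 and −0.04 without GRMAC 4. Among controls this gene was steady: 1.67% of tested genes had a smaller SD of log2 CPM in GRflox than its 0.0357.

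Foxo1 (NM_019739, chromosome 3, 52268337 to 52350109), the transcription factor that insulin signalling holds out of the nucleus, was at 83.4, 64.9, 82.2, 71.5 and 77.7 CPM in GRflox 1 to 5. It was at 66.2, 50.6, 91.7, 51.8 and 41.8 CPM in GRMAC 1 to 5. GRMAC 3 was the highest of all 10 libraries, and 3 of the 4 other GRMAC libraries lay below every control. The means of 75.9 ± 7.73 and 60.4 ± 19.6 CPM differed by −0.33 ± 0.19 on the log2 scale (edgeR, adjusted p = 0.429). Without GRMAC 3 it was −0.53 (adjusted p = 0.109, edgeR).

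Foxo3 (NM_019740, chromosome 10, 42185786 to 42276742), a related FOXO factor, was at 24.9, 21.9, 17.8, 24.4 and 19.97 CPM in GRflox 1 to 5 and at 22.5, 21.5, 30.9, 18.4 and 20.2 CPM in GRMAC 1 to 5. GRMAC 3 was again the highest library, and the genotypes overlapped. The log2 fold change was 0.06 ± 0.14 (adjusted p = 0.871, edgeR), and it changed sign without GRMAC 3 (−0.08).

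Ratios of counts between members within a library do not depend on how libraries are scaled, and 4 were compared by two-sided exact permutation tests over all 252 assignments of 5 against 5. There were 3.35, 2.96, 4.61, 2.93 and 3.89 Foxo1 counts per Foxo3 count in GRflox 1 to 5, and 2.95, 2.35, 2.97, 2.82 and 2.07 in GRMAC 1 to 5. The mean log2 ratio was 1.81 ± 0.28 in GRflox and 1.38 ± 0.23 in GRMAC (SD, n = 5), a difference of −0.42 (exact permutation test, p = 0.0397; adjusted over the 4 ratios, p = 0.159). It did not pass after adjustment, and the raw p rose to 0.0794 when any of 6 libraries was left out. Igfbp1 had 1.98, 1.26, 2.05, 0.780 and 0.381 counts per Igf1 count in GRflox 1 to 5, and 0.333, 0.392, 0.442, 0.914 and 0.684 in GRMAC 1 to 5. Raw carrier counts exceeded raw ligand counts in GRflox 1, 2 and 3 and in none of the other 7 libraries. This crossing depends on length, since Igf1 has 7052 exonic bases and Igfbp1 has 1525. Per kb of exonic length, Igfbp1 lay above Igf1 in every library. In GRflox the lowest Igfbp1 value was 136.9 and the highest Igf1 value 84.5 CPM per kb, and in GRMAC they were 151 and 102. The log2 ratios differed by −1.08 (exact permutation test, p = 0.0952, adjusted p = 0.190), with −1.46 and p = 0.0317 without GRflox 5 (exact permutation test). For Igfbp1 against Igfbp2 the difference was −0.62 (exact permutation test, p = 0.206, adjusted p = 0.275). For Irs1 against Irs2 it was −0.33 (exact permutation test, p = 0.302, adjusted p = 0.302), with Irs1 at 0.250 of the Irs2 count in GRMAC 4 and 0.694 in GRMAC 3. Without GRMAC 4 this difference was −0.10 (exact permutation test, p = 0.603), and with libraries left out in turn it ranged from −0.47 to −0.10.

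**Figure D3:**
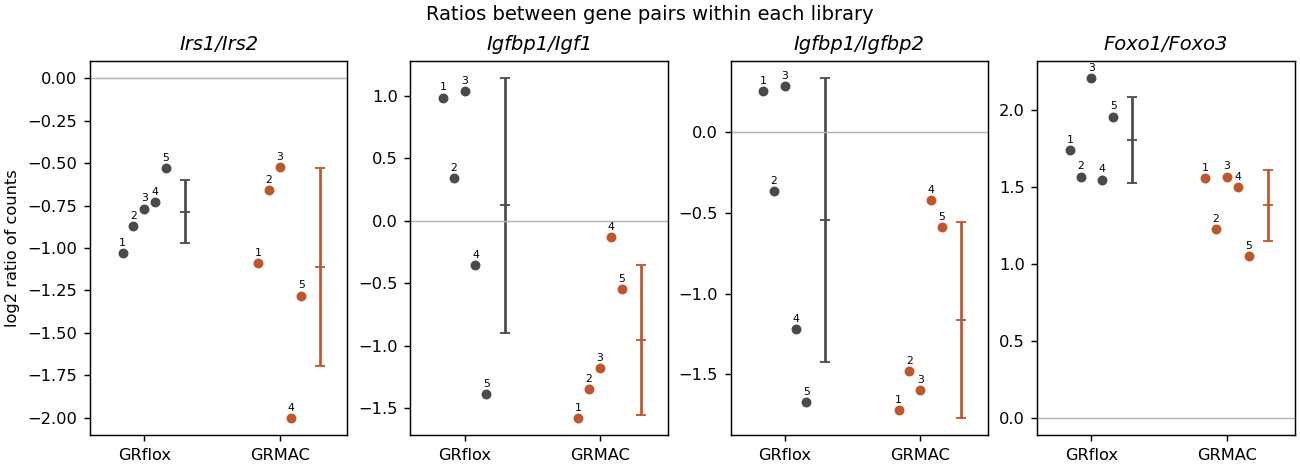
Log2 ratio of counts (y axes) for 4 gene pairs in each library, by genotype; points are libraries with their numbers, and bars give the mean and SD (n = 5). GRMAC 4 has the lowest Irs1/Irs2 ratio (−2.0), and GRflox 1, 2 and 3 are the only libraries above 0 for Igfbp1/Igf1. Counts are not divided by transcript length, so the line at 0 does not mark equal levels.

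Levels were compared between genes as CPM per kb of exonic length, from the transcript named in the count table. In GRflox the order was Igfbp2 (657 CPM per kb), Igfbp1 (469), Igf1 (76.5), Akt2 (23.9), Insr (20.5), Irs2 (10.9), Foxo1 (8.77), Pik3r1 (7.80), Foxo3 (7.54) and Irs1 (4.32). Igfbp2 and Igfbp1 overlapped, as did each neighbouring pair from Irs2 to Foxo3, so their order is not beyond the spread. Irs1, at 3.99 to 4.54 CPM per kb, lay below every other gene in GRflox, the nearest being Pik3r1 from 5.85 CPM per kb. In GRMAC Irs1 was again the lowest (2.96 to 3.71 CPM per kb), with Foxo1 next from 4.82 CPM per kb. Akt2 exceeded Insr in every GRflox comparison (23.5 to 24.9 against 18.7 to 21.4 CPM per kb), whereas in GRMAC their ranges overlapped. These levels depend on the transcript chosen, since other isoforms differ in length.

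**Figure D4:**
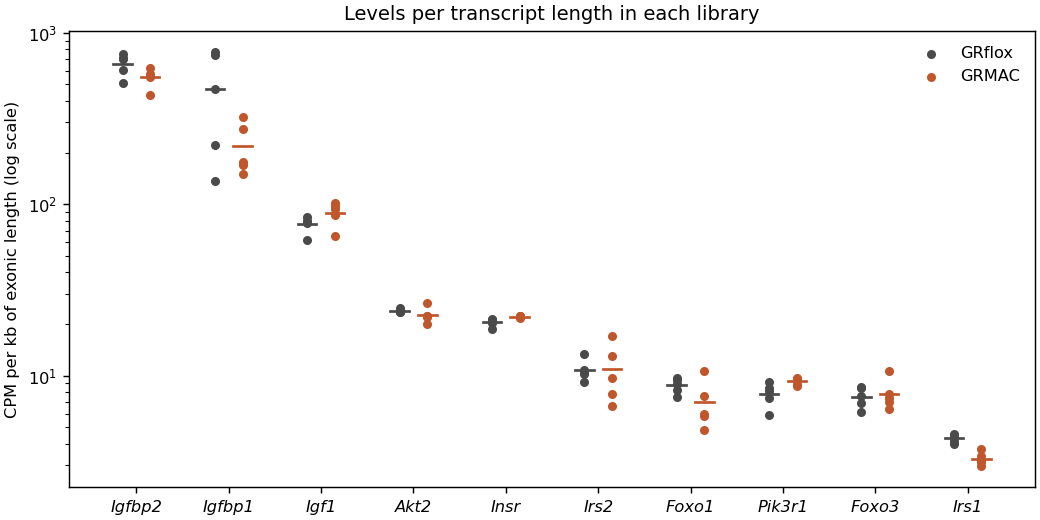
CPM per kb of exonic length on a log scale (y axis) for the 10 genes, ordered by their GRflox mean; points are libraries and short lines the group means. The secreted IGF carriers and IGF1 stand above the kinases, adaptors and FOXO factors, and Irs1 is lowest in both genotypes (4.32 and 3.28 CPM per kb).

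Other genes of the pathway were followed in 10 lists, which hold 103 distinct tested genes with the members among them. With edgeR 1 of the 103, Irs1, passed over all genes (0.175% of all tested genes did), and 20 (19.4%) had an unadjusted p under 0.05, against 16.3% of all tested genes. In the authors' deposited table, 6 of 104 distinct genes (5.77%), Irs1 and 5 others, had an adjusted p under 0.05, against 3.33% of all genes with a value. The lists too were chosen with earlier results of these data known, so these shares do not measure enrichment. Among the adaptors and their partners (10 tested) Irs1 was the only call by either; Sh2b1, which encodes an adaptor of INSR and JAK2, was at 86.9 ± 3.25 and 78.1 ± 3.70 CPM without overlap (−0.15 ± 0.05, adjusted p = 0.175, edgeR). The receptor and ligand list (4 tested), the IGF carriers (9 tested) and the PI3-kinase subunits (6 tested) held no call. At an unadjusted p under 0.05 edgeR had 0, 1 (Igfbp2) and 1 (Pik3r1) of them, where the background is again 16.3%. Igfbp4, the most abundant carrier by counts, was at 1616 ± 103 and 1665 ± 91.8 CPM, and Pik3ca, the catalytic p110α subunit, at 51.6 ± 1.399 and 50.2 ± 1.56 CPM.

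In the AKT branch (20 tested) Rictor and Gsk3a passed in the authors' deposited table, in opposite directions, against 3.33% of all genes with a value. At an unadjusted p under 0.05 edgeR had 1 higher and 2 lower (background 16.3%). Rictor, the defining subunit of the mTORC2 complex that phosphorylates AKT, was at 35.5, 33.9, 32.6, 28.3 and 27.5 CPM in GRflox 1 to 5 and at 37.2, 42.4, 42.5, 41.0 and 42.0 CPM in GRMAC 1 to 5. Every GRMAC library was above every control, and the authors' deposited table gave a log2 fold change of 0.38 with adjusted p = 0.00220. With edgeR the log2 fold change was 0.38 ± 0.08 (adjusted p = 0.0623), and 0.27 with the correction for GC content and length. Gsk3a, a glycogen synthase kinase that AKT inhibits, was at 72.2, 71.9, 74.4, 66.8 and 73.2 CPM in GRflox and at 62.0, 64.7, 62.9, 62.2 and 61.2 CPM in GRMAC. It was lower in every GRMAC library, with −0.20 and adjusted p = 0.00817 in the authors' deposited table and adjusted p = 0.0864 with edgeR. The list as a whole had a median log2 fold change of −0.04, with 9 positive and 11 negative.

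Genes that oppose insulin signalling (14 tested) had a median of 0.05 and no call by either test; at an unadjusted p under 0.05 there were 2 higher and 2 lower with edgeR (background 16.3%). Grb10, an adaptor that inhibits INSR, had the lowest p (3.87 ± 0.521 and 4.90 ± 0.553 CPM, 0.34 ± 0.13, adjusted p = 0.207, edgeR).

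Among FOXO factors and their partners (12 tested) edgeR had 2 higher and 2 lower at an unadjusted p under 0.05 (background 16.3%). Only Ywhag passed in the authors' deposited table (−0.28, adjusted p = 0.0101), against 3.33% of all genes with a value. It encodes a 14-3-3 protein, of the family that binds phosphorylated FOXO factors. It was at 183, 169, 178, 164 and 212 CPM in GRflox 1 to 5 and at 144, 151, 146, 155 and 149 CPM in GRMAC 1 to 5. The genotypes did not overlap, and with edgeR the adjusted p was 0.0854 (−0.28 ± 0.07). Foxa2, a pioneer factor of hepatocytes named after its value was seen, was at 31.2 ± 9.75 and 54.7 ± 15.5 CPM with overlap (0.81 ± 0.26, adjusted p = 0.183, edgeR).

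The FOXO1 target list (15 tested) had a median of −0.04. At an unadjusted p under 0.05 edgeR had 2 higher and 2 lower (background 16.3%). Of its genes 2 passed in the authors' deposited table, against 3.33% of all genes with a value. Both were higher: Sesn3, a stress-induced sestrin, and Gadd45a, a growth arrest gene. Sesn3 was at 6.01, 5.08, 5.78, 5.52 and 4.06 CPM in GRflox and at 6.72, 7.77, 9.21, 7.57 and 7.45 CPM in GRMAC (0.55 ± 0.12, adjusted p = 0.0700, edgeR). The authors' deposited table gave adjusted p = 0.00396 for it. Gadd45a was at 0.390, 0.827, 0.571, 1.35 and 0.812 CPM in GRflox and at 2.20, 1.93, 1.91, 1.498 and 1.48 CPM in GRMAC, a low level in every library (1.18 ± 0.27, adjusted p = 0.0756, edgeR). Without GRflox 4 its adjusted p was 0.0435 (1.46, edgeR), and the authors' deposited table gave 0.00440.

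Of the 15 FOXO1 targets 7 had positive and 8 negative log2 fold changes. Pck1, which encodes phosphoenolpyruvate carboxykinase, was at 4752 ± 753 and 3420 ± 768 CPM (−0.47 ± 0.16, adjusted p = 0.177, edgeR). Its log2 fold change was −0.31 without GRflox 4 and GRMAC 4. G6pc, Pdk4 and Ppargc1a, named after their values were seen, had log2 fold changes of −0.51 ± 0.31, −0.58 ± 0.51 and −0.26 ± 0.17, none past the threshold. Single libraries moved these values: Pdk4 was at −0.34 without GRMAC 3, −0.38 without GRMAC 1 and −0.93 without GRMAC 5. Ppargc1a was at −0.17 without GRMAC 2 and −0.45 without GRMAC 3.

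Insulin-induced genes (11 tested) held no call by either test, and 1 gene, Fasn, had an unadjusted p under 0.05 with edgeR (background 16.3%). The list had 4 positive and 7 negative log2 fold changes, with a median of −0.05. Fasn, the fatty acid synthase, was at 211 ± 17.5 and 178 ± 29.2 CPM (−0.24 ± 0.10, adjusted p = 0.261, edgeR). Scd1, a desaturase, was at 1818 ± 722 and 2445 ± 722 CPM (0.43 ± 0.29); its log2 fold change was 0.70 without GRflox 3 and 0.19 without GRflox 4 and GRMAC 4. Srebf1, a lipogenic transcription factor gene that insulin induces in liver, was named after its value was seen and had a log2 fold change of 0.37 ± 0.22, which was 0.24 without GRMAC 2 and 0.61 without GRflox 4 and GRMAC 4.

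The growth hormone axis (10 tested, Igf1 and Igfals among them) had 9 positive log2 fold changes and a median of 0.17, with no call by either test and no unadjusted p under 0.05 with edgeR (background 16.3%). Jak2, the receptor's kinase, was at 17.1 ± 1.91 and 19.3 ± 1.33 CPM (0.17 ± 0.08, adjusted p = 0.320, edgeR). Ghr, the receptor, was at 272 ± 57.9 and 305 ± 67.8 CPM; its log2 fold change of 0.16 was 0.40 without GRflox 4 and GRMAC 4, and 0.06 without GRMAC 2. The STAT5 targets Cish (17.7 ± 8.58 and 40.9 ± 22.7 CPM) and Socs2 (50.7 ± 20.5 and 92.0 ± 38.5 CPM), named after their values were seen, had the largest differences of the list and overlapped between genotypes (1.21 ± 0.56 and 0.86 ± 0.46). Without GRflox 4 and GRMAC 4 the value of Socs2 was 0.48. With the correction for GC content and length, Igf1, Ghr and Jak2 were nearer 0, at 0.08, 0.07 and 0.11. Cish and Socs2 changed little, at 1.23 and 0.84.

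**Figure D5:**
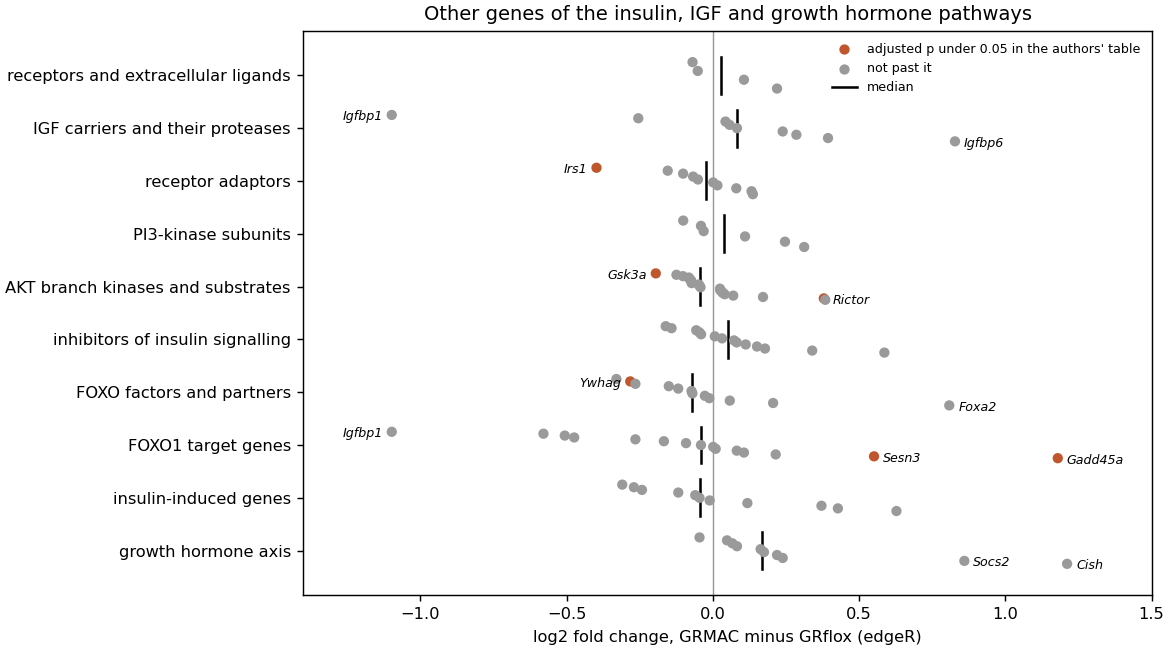
Log2 fold change of GRMAC against GRflox (x axis, edgeR) for the tested genes of 10 lists; each point is a gene, black lines are list medians, and orange marks an adjusted p under 0.05 in the authors' deposited table. Labelled genes are those in orange and those farthest from 0; a gene may stand in several lists. The growth hormone axis has the highest median (0.17).

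The genes whose pattern over the 10 libraries was most like that of Irs1 were found among 9398 genes with a mean of at least 5 CPM, by the root mean square difference of log2 CPM centred on each gene's mean. They were Nfe2l1 (0.0883), Bicd2 (0.0969), Mrps6 (0.0987), Irak2 (0.0998) and Kmt2d (0.100), where Irs1 itself varied by 0.221. In all 5 each GRMAC library lay below each control, which Irs1's own pattern favours, and log2 fold changes ran from −0.40 for Mrps6 to −0.32 for Bicd2. For Igfbp1 the nearest genes were far less close: Enc1 (0.587), Rasgef1b (0.589), Ppp1r3g (0.636), Arl4d (0.640) and Vcam1 (0.642), where Igfbp1 varied by 0.876. Of these, Rasgef1b, Ppp1r3g and Arl4d were highest in GRflox 1 and 3, as Igfbp1 was, which the choice by Igfbp1's own pattern favours.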

How the data were processed

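Polyadenylated liver RNA from 5 GRflox and 5 GRMAC libraries was sequenced. The authors deposited whole-number counts per gene, 1 RefSeq transcript per row; HISAT2 2.1.0, DESeq2 1.24.0 and build mm10 are named per the submitters' processing notes. The counting program, strand setting and handling of introns are not given in the sources used here, so reads of a gene and an antisense partner cannot be told apart. A second deposited table gives the authors' log2 fold changes and adjusted p-values, per the file headers. For the genes named here these equal the values of DESeq2 run on the deposited counts, so that table is no independent test. Its 10 columns of values per library were not used.

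Genes were filtered with filterByExpr (edgeR 4.0.16, R 4.3.3), which removed 0.0348% of counts, scaled by TMM and tested across all genes with the quasi-likelihood test of edgeR (robust), with Benjamini-Hochberg adjustment and a threshold of 0.05. Standard errors come from the fold change and F statistic. Alternatives were DESeq2 1.42.0, limma-voom (limma 3.58.1), other scalings, no filter, a replicate block, a spline correction for GC content and length (99.9% of tested genes had both, from GENCODE M21), and leaving out libraries. The scripts were tested on simulated data. Ratios had 0.5 added to each count. From each list the text names genes past the threshold in either table, the lowest p and the highest CPM among non-members; other names are marked, and 1 gene that this rule takes is not reported here. Members and lists were chosen with earlier results of these data known.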

Additional observations from a re-analysis of the deposited data

Results flagged for a closer look

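In 28 groups of 5 values (10 genes and 4 ratios in each genotype) 1 value stood far from the other 4, where chance gives about 1.4 (1 in 20). Akt2 was at 113.3 CPM in GRflox 2, against 107 to 108 CPM in the other GRflox libraries.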

How the results depend on the processing

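Against 22 genes called across the table with edgeR, DESeq2 called 424 (22 shared), limma-voom 8 (7 shared), edgeR without robust estimation 8 (7 shared), a fit without the low-count filter 34 (22 shared) and the GC and length correction 9 (8 shared). RLE scaling gave 22 and scaling by library totals 30. Leaving out libraries in turn gave 5 (without GRflox 3 or 5) to 47 (without GRMAC 5), with 6 without GRflox 2, 9 without GRflox 1, and 10 without GRMAC 1 or 4; without both GRflox 4 and GRMAC 4 there were 68 (16 shared). The number of members called was 1 (Irs1) and became 0 with limma-voom, 0 without robust estimation and 0 without GRflox 4 and GRMAC 4; with libraries left out in turn it was 0 to 1, being 1 only without GRMAC 5. Irs1 kept its negative sign in 19 of 19 alternatives and lost the call in 12, and the cause was not tested. Irs2, with a log2 fold change near 0 (0.000916), turned negative with DESeq2 (−0.000963), limma-voom (−0.0743), no filter (−0.000932), the GC and length correction (−0.00229) and without GRflox 4 and GRMAC 4 (−0.225), and ranged from −0.225 to 0.139 with libraries left out in turn; Foxo3 ranged from −0.0757 to 0.125. With the GC and length correction Eif4ebp2 went from −0.0455 to 0.00747. The Foxo1/Foxo3 ratio (−0.424) had p = 0.0556 by an exact rank test, and left out in turn ranged from −0.487 to −0.324; Igfbp1/Igf1 ranged from −1.46 to −0.852. Fits with 4 libraries in a group have fewer residual degrees of freedom.

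The labels do not say whether the replicate numbers pair libraries. Same-numbered libraries correlated by 0.04, 0.17, 0.15, −0.11 and 0.054 (numbers 1 to 5, over genes, as deviations from group means). In 4 of 10 cases (GRflox 2 and 3, GRMAC 3 and 5) a library correlated best with its own number. With 5 numbers and no reference for such correlations, these values cannot decide whether the numbers mark pairs. With the replicate block 81 genes were called (20 shared), Irs1 had −0.40 and adjusted p = 0.0396 (edgeR), Irs2 −0.0725, and the Foxo1/Foxo3 difference of −0.424 had an exact p = 0.0625, the smallest that 5 pairs allow. The lowest count of a member in any library was 468, for Foxo3 in GRflox 3, so depth limits the values of the members less than those of genes such as Gadd45a at about 1 CPM.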
